A study of Mus musculus with 4 samples.

Results

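A 9-Mb interval of mouse chromosome 1, from 168 to 177 Mb on mm10, held 3879 CCGG sites listed in at least 1 of the study's 4 deposited files, out of 1110575 sites listed in all. The interval was chosen by which sites the files list: many of its sites were listed for wild-type mice and absent from the files of mice lacking Neil3. That listing, and every other difference between the genotypes in it, is given as a description with no test. The study set Neil3-/- against wild-type C57BL/6 mice, 8 weeks old, and compared infarcted with non-infarcted left ventricle, all taken 3 days after an induced myocardial infarction. The 4 groups were Neil3-null infarcted, Neil3-null non-infarcted, wild-type infarcted and wild-type non-infarcted tissue, with 1 sample each. How the Neil3 allele was made, how many animals went into a sample and whether the non-infarcted tissue came from the infarcted hearts are not given in the labels.

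NEIL3 is a DNA glycosylase that removes oxidised bases from DNA; its gene lies on another chromosome. In mammalian DNA most cytosines followed by guanine carry 5-methylcytosine, whereas active promoters and CpG islands are largely unmethylated, and oxidation of 5-methylcytosine gives 5-hydroxymethylcytosine. The assay used, HMST-seq, reads short tags beside CCGG sites from 3 libraries of each sample. HpaII cuts a site only when it is unmodified, MspI cuts it in any of the 3 states, and MspI after glucosylation with a glucosyltransferase (BGT) cuts it unless it carries 5-hydroxymethylcytosine. HpaII signal as a percent of MspI signal therefore follows the unmodified state, and BGT signal as a percent of MspI signal drops where 5-hydroxymethylcytosine is present. The deposited totals of the 3 libraries of a sample were similar, and both percents are relative values that can exceed 100.

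The interval is dense in genes of immunity. It holds the SLAM receptors, which signal between leukocytes, receptors for the Fc part of antibodies, and the interferon-inducible p200 genes with Aim2, a sensor of cytosolic DNA. Genes of muscle, cardiac and vascular interest lie there too. Among them are Casq1, the calcium store protein of fast skeletal muscle, and Ddr2, a collagen receptor of fibroblasts. Another is Nos1ap, an adaptor of neuronal nitric oxide synthase linked to the QT interval in humans. In RefSeq, 132 protein-coding genes overlapped the interval, beside 38 long non-coding RNA genes, 5 microRNA genes, 27 tRNA genes and 33 pseudogenes.

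The promoters of 4 genes are shown because sites in them differed between the genotypes in listing or in level. Each window runs from 250 bases before to 50 after the gene's start, is taken from RefSeq on GRCm38.p6 (mm10), and is written 5′ to 3′ on the gene's strand; capitals mark the CCGG sites that the files list. Rgs7, a regulator of G-protein signalling in neurons, has its window at chr1:175492496-175492795 on the minus strand. The other three were chosen after their values were seen. They are Alyref2, related to an mRNA export factor, at chr1:171503228-171503527, Fcgr4, an activating receptor for IgG on myeloid cells, at chr1:171018676-171018975, and Cd48, a SLAM family ligand, at chr1:171681742-171682041, all on the plus strand.
Rgs7: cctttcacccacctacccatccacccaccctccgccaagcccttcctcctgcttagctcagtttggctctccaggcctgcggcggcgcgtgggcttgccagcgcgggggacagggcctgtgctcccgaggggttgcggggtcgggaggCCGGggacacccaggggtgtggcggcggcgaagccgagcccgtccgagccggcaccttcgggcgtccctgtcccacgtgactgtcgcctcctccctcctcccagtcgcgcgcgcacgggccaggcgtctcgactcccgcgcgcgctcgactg
Alyref2: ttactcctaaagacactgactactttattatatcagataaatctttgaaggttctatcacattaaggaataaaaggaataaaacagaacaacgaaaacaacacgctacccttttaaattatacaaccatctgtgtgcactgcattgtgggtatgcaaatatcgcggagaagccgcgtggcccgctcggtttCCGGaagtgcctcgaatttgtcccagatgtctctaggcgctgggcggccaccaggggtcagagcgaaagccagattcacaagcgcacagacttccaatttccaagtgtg
Fcgr4: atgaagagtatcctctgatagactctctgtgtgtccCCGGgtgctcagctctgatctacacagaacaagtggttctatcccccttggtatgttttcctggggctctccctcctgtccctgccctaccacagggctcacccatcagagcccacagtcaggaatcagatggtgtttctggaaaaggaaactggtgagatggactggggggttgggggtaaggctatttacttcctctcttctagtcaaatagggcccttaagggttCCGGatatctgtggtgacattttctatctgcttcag
Cd48: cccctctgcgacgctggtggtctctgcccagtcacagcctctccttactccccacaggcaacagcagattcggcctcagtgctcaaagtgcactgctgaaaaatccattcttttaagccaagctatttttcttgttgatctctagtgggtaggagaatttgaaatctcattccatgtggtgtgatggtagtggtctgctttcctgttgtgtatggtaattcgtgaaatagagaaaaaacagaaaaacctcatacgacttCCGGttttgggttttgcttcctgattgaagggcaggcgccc

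The marked Rgs7 site, -102 bases from the start, was listed in both wild-type files and in neither Neil3-null file. Its wild-type HpaII signal was 127 in infarcted and 121 in non-infarcted tissue, beside an MspI signal of 7.17 and 9.36. The Alyref2 site at -59 was likewise unlisted in the null files, with a wild-type HpaII signal of 63.4 in infarcted and 98.2 in non-infarcted tissue. Both sites thus had far more HpaII than MspI signal in wild-type hearts. The Fcgr4 sites were listed in all 4 files, and their HpaII percents differed in opposite directions. At -214, HpaII was 231% and 183% of MspI in null infarcted and non-infarcted tissue, against 107% and 68.6% in wild-type tissue. HpaII signal there was alike, at 102 and 76.5 in null tissue, against 98.1 and 73.4 in wild-type tissue, while MspI signal was 44.2 and 41.8 in null tissue, against 91.7 and 107 in wild-type tissue. At +14 the HpaII percent was 112% and 69.4% in null tissue, against 239% and 179% in wild-type tissue. HpaII signal there was 65.4 and 42.9 in null tissue, against 75.1 and 67.1 in wild-type tissue, and MspI signal 58.4 and 61.8 in null tissue, against 31.4 and 37.5 in wild-type tissue. The Cd48 site at +9 had 153% and 137% in null tissue, against 455% and 388% in wild-type tissue. Its HpaII signal was higher in null tissue, at 86.1 and 76.7, against 62.3 and 48.6 in wild-type tissue. Its MspI signal was 56.2 and 56.1 in null tissue, against 13.7 and 12.5 in wild-type tissue. Windows were found for 113 of the 132 protein-coding genes. CCGG, which reads the same on both strands, occurred in 70 of the interval's 163 windows (42.9%) and in 52.8% of all 32851 windows of the table. Of 146 distinct CCGG sites in the interval's windows, 75 were listed, 70 of them in all 4 files, 3 in both wild-type files only and 0 in the null files only. The third of the wild-type-only sites lay in the window of a predicted gene.

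Absence from the files was frequent and one-sided in the interval. Of the 3677 interval sites listed in both wild-type files, 588 were in neither null file, which is 16.0% (95% Wilson interval 14.8 to 17.2, counting error only). The share was 0.685% on the rest of chromosome 1 (460 of 67163) and 0.748% over all autosomes. In the opposite direction, 5 of the 3028 sites of both null files were in neither wild-type file (0.165%, against 0.353% on the rest of chromosome 1 and 0.309% over all autosomes). A further 148 wild-type sites (4.03%) were in exactly 1 null file, close to 3.93% on the rest of the chromosome. Taken over all sites of both wild-type files, the excess in the interval thus lay mainly in sites absent from both null samples. The 588 sites in neither null file are part of that denominator and cannot be in exactly 1, which lowers the 4.03%. All 4 files listed 2941 of the 3879 sites (75.8%), against 89.3% on the rest of chromosome 1. The 5 null-only sites had MspI signals of 16.1 to 65.8 and low HpaII signals of 4.13 to 11.9; 1 lies at chr1:170212147 in Uhmk1, a kinase.

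Because the interval was chosen on this listing, the change of the share at its ends is part of that choice. The share was 0.445% in the 1-Mb bin before the start (3 of 674 sites) and 15.7% in the first bin inside (62 of 396). The last bin inside had 10.5% (35 of 333), and the next bin after the end had 1.33% (5 of 376). Inside, the 9 bins ran from 10.5% to 28.8% with a median of 16.0%, and the highest was the bin from 174 to 175 Mb, which holds Fmn2. Outside, 183 bins with at least 100 sites had a median of 0.580% and a highest value of 5.28%, in the bin from 160 to 161 Mb. The bins from 161 to 164 Mb had 4.66%, 2.73% and 1.83%, and those from 182 to 184 Mb had 1.67% and 3.20%. The first wild-type-only site was at chr1:168024502 and the last at chr1:176921457, and the nearest ones beyond were at chr1:167968855 and chr1:177057830. In bins of 100 kb, 89 of the 90 bins of the interval held at least 1 wild-type-only site, against 372 of 1818 bins with at least 10 sites on the rest of the chromosome, where the highest share was 21.7%.

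**Figure D1:**
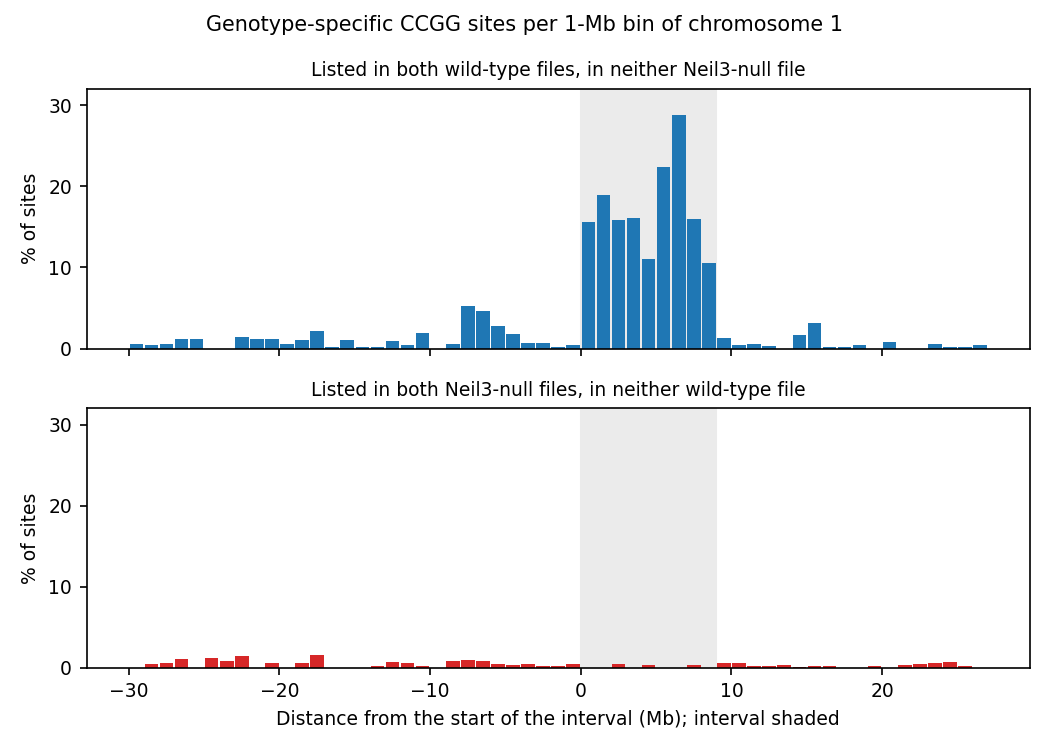
Share of CCGG sites, in percent per 1-Mb bin of chromosome 1, that were listed in both files of 1 genotype and in neither of the other, plotted by distance from the interval's start in Mb; bars are bins and the interval is shaded. Wild-type-only shares (top) are 10.5% to 28.8% in the 9 shaded bins, while null-only shares (bottom) reach at most 0.457% there.

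Wild-type-only sites were scattered among sites that were listed in null files too. They formed 424 runs along the interval, of which 317 were single sites and 30 had at least 3 sites. The longest run had 8 sites, chr1:171071535-171085822, and spanned no protein-coding gene. The longest stretch of retained sites had 61, at the low end of the interval. Neighbouring wild-type-only sites were a median of 8637 bases apart. The widest gap between them was 160738 bases, chr1:173483147-173643885, where 15 sites were listed in both wild-type files. Where 2 neighbouring sites lay within 100 bases of each other, 37 of 166 pairs had at least 1 wild-type-only site, and in 7 of these both sites were wild-type-only.

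The share of wild-type-only sites was lower near gene starts. Within 1 kb of a RefSeq gene start, 21 of 290 sites were wild-type-only (7.24%, 95% Wilson interval 4.78 to 10.8). Elsewhere in protein-coding genes the share was 14.4% (279 of 1933), and outside them 19.8% (288 of 1454). The rest of chromosome 1 had 0.170%, 0.739% and 0.691% in the same 3 classes. Sites with no other CCGG within 500 bases had 18.3%, those with 1 to 3 others 13.1%, and those with 4 or more 11.5% (6 of 52), the last with a Wilson interval of 5.40 to 23.0. Exons and introns were not separated, since the annotation used gives the ends of genes only.

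**Figure D2:**
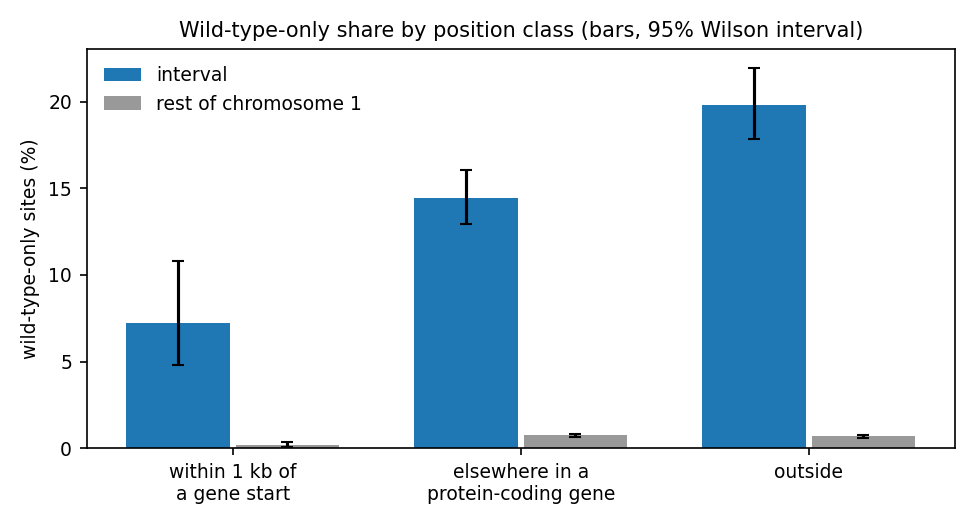
Wild-type-only sites as a percent of sites listed in both wild-type files, by position class, in the interval (blue) and on the rest of chromosome 1 (grey); error bars are 95% Wilson intervals. The interval's shares are 7.24% within 1 kb of a gene start, 14.4% elsewhere in protein-coding genes and 19.8% outside, and the rest of the chromosome stays below 1%.

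In wild-type tissue the interval's wild-type-only sites had lower MspI signals than its shared sites, and HpaII percents near theirs. The median MspI signal of the wild-type-only sites was 20.2 in infarcted and 24.8 in non-infarcted tissue, against 27.3 and 32.5 at the interval's sites listed in all 4 files. An MspI signal of at least 20 was reached by 50.3% and 58.5% of the wild-type-only sites, against 64.6% and 70.6% of the shared sites. Wild-type-only sites on the rest of chromosome 1 were weaker, with medians of 12.0 and 14.8. The median HpaII percent of the interval's wild-type-only sites was 90.3 and 101, against 99.9 and 97.4 at the interval's shared sites. On the rest of the chromosome, wild-type-only sites had 52.6 and 41.5. In the interval, then, the medians of wild-type-only and shared sites lay closer together than on the rest of the chromosome, for MspI signal and for the HpaII percent. No file holds a value of 0, and the sources used here do not say what made the authors list a site.

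Of the 132 protein-coding genes, taken with 1 kb on either side, 120 had a site in both wild-type files, and 88 of these had at least 1 wild-type-only site. This count depends on how many sites a gene has, and no matching count was made for genes elsewhere. By sites in protein-coding genes beyond 1 kb of a gene start, the share was 14.4%, against 0.739% on the rest of chromosome 1. Rgs7 had the most wild-type-only sites, 34 of 117 (29.1%). Nos1ap had 24 of 149, Fmn2, an actin nucleator, 20 of 85, and Pld5, of the phospholipase D family, 19 of 121. Atf6, a sensor of endoplasmic reticulum stress, had 9 of 59, Ddr2 8 of 82, and Aim2 6 of 48. Nuf2, a kinetochore protein, and Wdr64 had 5 each, of 26 and 50. Among genes with at least 10 sites the share was highest at Slamf8 (4 of 11, 36.4%). Of the 71 genes with at least 10 sites, 4 had none, and those named here were chosen after their values were seen. Among them were Ncstn, the nicastrin subunit of gamma-secretase (21), Fh1, fumarate hydratase (16), and Nhlh1, a neuronal transcription factor (12).

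By gene group, the share of wild-type-only sites ran from 10.7% to 17.9%. It was 16.0% over the 9 SLAM family genes (19 of 119 sites), each of which had at least 1. The Fc receptors and the p200 family with Aim2 each had 14.6% (12 of 82). Genes for plasma and erythroid proteins had 17.9% (5 of 28), and mitochondrial and metabolic enzymes had 10.7% (17 of 159). The muscle, channel and vascular genes had 13.7% (63 of 461), with at least 1 at each of 13 genes. Transcription and signalling regulators had 15.5% (82 of 529), and genes of the cytoskeleton, myelin and genome maintenance had 12.1% (60 of 497). The whole interval, which includes sites outside genes, had 16.0%. Its sites in protein-coding genes beyond 1 kb of a gene start had 14.4%.

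At sites listed in all 4 files the typical level was alike between the genotypes. Of 2941 such interval sites, 2804 had a mean BGT and MspI signal of at least 10 and were used for ratios. Their median HpaII percent was 95.8 and 96.9 in null infarcted and non-infarcted tissue, against 95.3 and 94.3 in wild-type tissue. The rest of chromosome 1 had 90.4 and 90.5 in null tissue, against 90.5 and 89.8 in wild-type tissue. The median BGT percent in the interval was 100.2 and 99.2 in null tissue, against 97.3 and 98.7 in wild-type tissue. These medians lie within 3 percentage points of each other, but single sites spread more widely between genotypes in the interval than elsewhere. The HpaII percent differed at least 2-fold between genotypes at 19.7% of interval sites in infarcted and 18.0% in non-infarcted tissue, against 14.3% and 12.1% on the rest of chromosome 1, and 13.7% and 11.6% over all autosomes.

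The genotype difference recurred in both tissues. Whether these tissues came from the same hearts is not given, so they cannot be counted as independent replicates of the genotype. At 168 of the 2804 sites (5.99%) the HpaII percent differed at least 2-fold in the same direction in infarcted and in non-infarcted tissue, 97 of them higher and 71 lower in null mice. Over all autosomes this held for 1.53% of sites (0.819% higher, 0.709% lower), and on the rest of chromosome 1 for 1.51% (903 of 59789). The BGT percent did so at 70 sites (2.50%, against 0.694% over all autosomes). MspI signal itself did so at 103 sites (3.67%, against 0.120%), 41 higher and 62 lower in null tissue (0.0841% and 0.0357% over all autosomes). Across interval sites, the log2 genotype difference in one tissue followed that in the other with a Pearson r of 0.612 for MspI and 0.363 for the HpaII percent. On the rest of chromosome 1, r was 0.000395 and 0.0137. The points share libraries and the ratios share MspI, so these are descriptions over sites. In contrast, the infarct difference in the HpaII percent recurred in both genotypes at 47 interval sites (1.68%, against 1.77% over all autosomes).

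**Figure D3:**
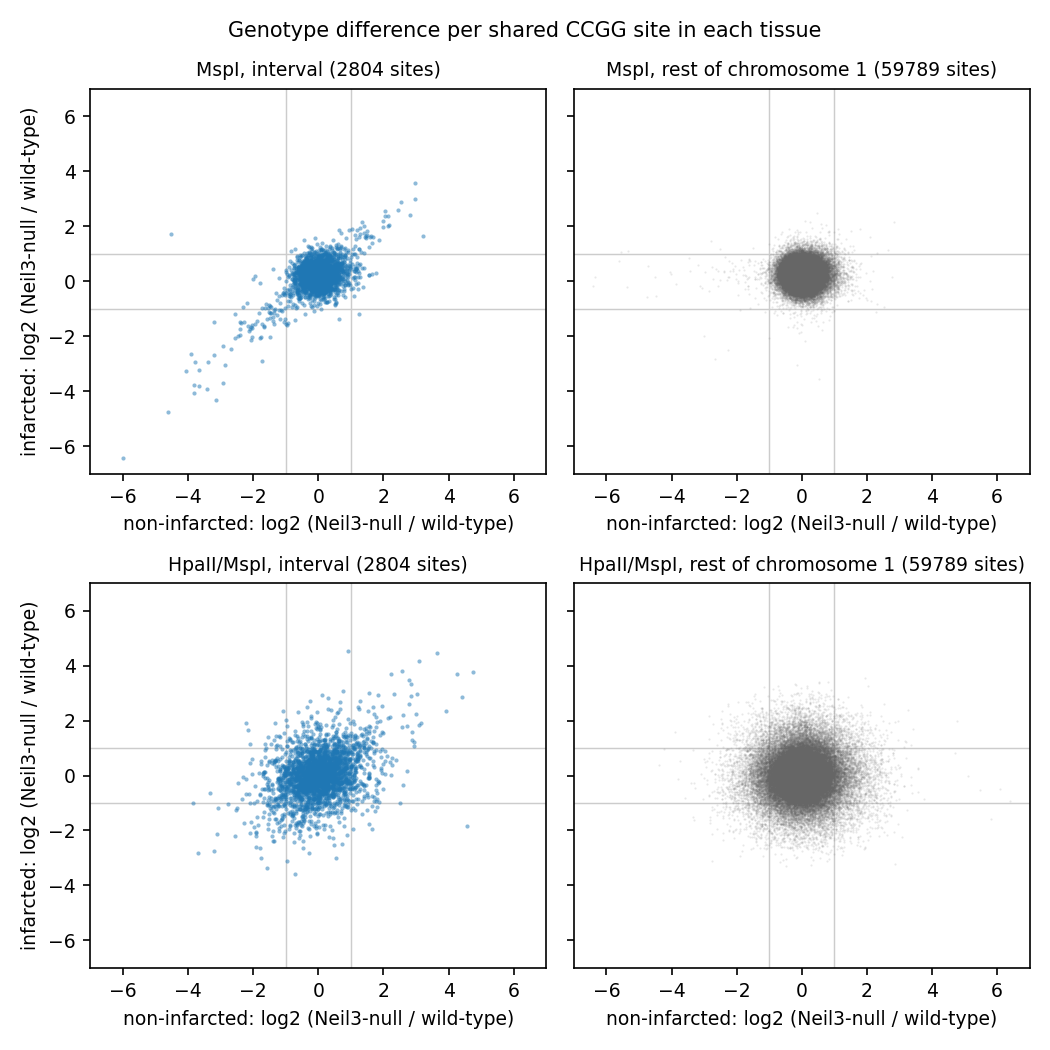
Log2 ratio of Neil3-null to wild-type values at each shared CCGG site, non-infarcted tissue on the x axis and infarcted tissue on the y axis, for MspI signal (top) and the HpaII/MspI ratio (bottom), in the interval (left) and on the rest of chromosome 1 (right). Grey lines mark 2-fold; in the interval the MspI points stretch along the diagonal (r = 0.612), and on the rest of the chromosome they form a round cloud (r = 0.000395).

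Since MspI is the denominator, part of the ratio difference moved with MspI. Of the 97 sites with a higher HpaII percent in null tissue, HpaII signal itself was at least 2-fold higher in both tissues at 39, and MspI signal at least 2-fold lower at 39, with 1 site in both sets. Of the 71 with a lower percent, 24 had HpaII lower and 16 had MspI higher, again with 1 in both. Among interval sites whose MspI signal stayed within 1.5-fold between the genotypes in both tissues, a selection made after seeing the data, 62 of 1943 (3.19%) still differed 2-fold in both tissues. That compares with 1.28% over all autosomes and 1.29% on the rest of chromosome 1. The median distance to the nearest wild-type-only site was 3716 bases for the sites higher in null tissue and 5312 for those lower, against 5309.5 for the remaining shared sites. Within 500 bases of one lay 7 of the sites higher in null tissue (7.22%) and 7 of those lower (9.86%), against 6.49% of the remaining sites; these differences were not tested.

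The 10 sites with the most extreme HpaII differences of equal direction in both tissues had 9 higher and 1 lower percents in null tissue, and at 7 of the 10 MspI signal was at least 2-fold lower in null tissue of both kinds. In Igsf9, an immunoglobulin superfamily gene, chr1:172488798 had a HpaII percent of 331 and 249 in null infarcted and non-infarcted tissue, against 14.9 and 19.8 in wild-type tissue. Its MspI signal was 14.9 and 18.5 in null tissue, against 122 and 133 in wild-type tissue. In Ddr2, chr1:170078989 had 151 and 359 in null tissue, against 11.7 and 18.6 in wild-type tissue. The 1 site with a lower percent, chr1:172367859 in the potassium channel gene Kcnj10, had 90.8 and 66.1 in null tissue, against 636 and 854 in wild-type tissue. Its MspI signal was 16.4 and 12.8 in null tissue, against 9.72 and 10.02 in wild-type tissue.

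Sites with MspI signal within 1.5-fold, taken from the selection above, show how far levels could differ at near-equal MspI signal. At chr1:171491055, outside protein-coding genes, the HpaII percent was 199.9 and 184 in null infarcted and non-infarcted tissue, against 26.5 and 25.7 in wild-type tissue. Its MspI signal was 71.3 and 82.6 in null tissue, against 55.8 and 58.7 in wild-type tissue. At chr1:175169780 in Rgs7 the HpaII percent was 23.6 and 25.7 in null tissue, against 101 and 111 in wild-type tissue. In Cd84, another SLAM receptor, the site chr1:171851831 had 109 and 98.7 in null tissue, against 732 and 918 in wild-type tissue. In Pex19, which encodes an import receptor for peroxisomal membrane proteins, chr1:172127974 had 293 and 299.7 in null tissue, against 80.9 and 35.1 in wild-type tissue. Both directions occurred among these 4 sites, which were chosen for their difference. In Ddr2, chr1:170096665 had 82.7 and 125 in null tissue, against 19.3 and 28.2 in wild-type tissue. In Kcnj10, chr1:172344405 had 15.6 and 30.01 in null tissue, against 72.3 and 113 in wild-type tissue.

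Some shared sites had far less MspI signal in null tissue. At chr1:172270435, outside protein-coding genes, MspI signal was 0.925 and 1.61 in null infarcted and non-infarcted tissue, against 79.9 and 103 in wild-type tissue. In Nuf2, chr1:169522407 had 8.88 and 11.8 in null tissue, against 121 and 167 in wild-type tissue. In Wdr64, chr1:175754056 had 5.71 and 8.63 in null tissue, against 80.2 and 109.98 in wild-type tissue. The first of these sites was close to the lowest MspI values of the null files, 0.495 and 0.491; the Nuf2 and Wdr64 sites were well above them.

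Other sites had more MspI signal in null tissue, and a group of them stood together at Itln1, the gene of intelectin-1, a lectin that binds microbial sugars. This stretch was picked out after seeing the values. From chr1:171513856 to chr1:171545373, 12 of the 13 sites listed in all 4 files had higher MspI signal in null tissue in both tissues. The same held for 1082 of the 2941 interval sites listed in all 4 files and for 22898 of 64063 on the rest of chromosome 1. Summed over the 13 sites, MspI signal was 2219 and 2324 in null infarcted and non-infarcted tissue, against 529.5 and 669 in wild-type tissue, which is 4.19 and 3.47 times as much. The BGT library gave 4.96 and 3.87 times as much, and HpaII 1.92 and 1.65 times. On the rest of chromosome 1 the same sums of MspI signal gave 1.18 and 0.957 times as much. The largest single site, chr1:171516802, had an MspI signal of 476 in both null samples, against 59.6 and 60.8 in wild-type tissue. At Cd244a, a SLAM receptor of natural killer cells, 7 of 8 sites were higher and the sums were 2.55 and 2.16 times as much. At 1 of these sites, chr1:171576233, the log2 difference was only 0.24 in infarcted and 0.06 in non-infarcted tissue. At Ifi202b, a p200 gene, both of its shared sites were higher, and the sums were 6.08 and 5.01 times as much. Over windows of 50 kb, the median log2 MspI difference was highest in the interval at the window of Alyref2 and Itln1, with 1.29 in infarcted and 0.82 in non-infarcted tissue. On the rest of chromosome 1, the highest of 3455 windows reached 0.73 and 0.51. The p200 genes are close copies of each other, and tags that fit several copies cannot be placed to 1 gene; the sources used here do not say how the authors treated such tags, and its part in these values was not tested.

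**Figure D4:**
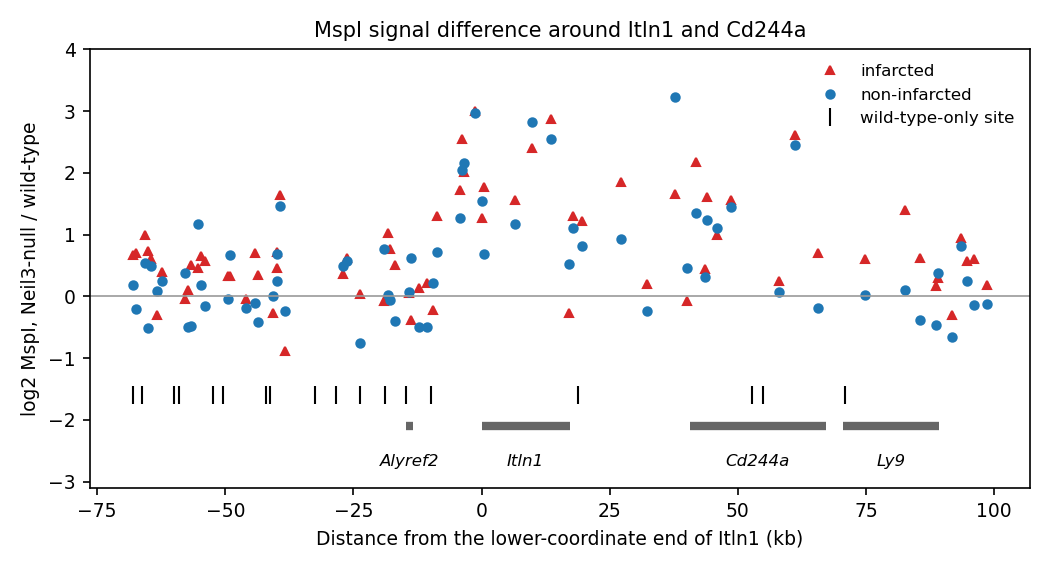
Log2 ratio of Neil3-null to wild-type MspI signal at CCGG sites listed in all 4 files, by distance in kb from the lower-coordinate end of Itln1, in infarcted (red triangles) and non-infarcted tissue (blue circles); ticks mark wild-type-only sites and grey bars genes. From just before Itln1 to the middle of Cd244a most points lie above 0, and the highest exceed a log2 ratio of 2.5.

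Summed over genes, differences between the genotypes went both ways. Of the 132 genes, 88 had at least 5 used sites. The HpaII percent of 8 of these 88 (9.09%) differed by at least 20 percentage points in the same direction in both tissues, 5 higher and 3 lower in null tissue, against 1.43% of 16175 autosomal genes. The BGT percent did so at 7 genes (7.95%, against 0.958%), all 7 lower in null tissue. For the BGT percent, the wild-type non-infarcted library stood apart from the other 3 in its spread, with 18.0% of interval sites at or above 200%, against 10.4% to 11.6% in the other samples. Its spread was wider over all autosomes too, with 18.95% of sites at or above 200%, against 10.9% to 12.0%.

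Among SLAM receptors, Cd244a had the lowest null values relative to wild type, with a HpaII percent of 101 and 97.1 in null infarcted and non-infarcted tissue, against 186 in both wild-type samples. Its percent was lower in null tissue at 6 and higher at 0 of 9 sites in both tissues, and its higher MspI signal, given above, enters that ratio. Of the 9 measured SLAM genes, 1 was lower and 0 were higher by the rule of 20 points, and their median difference was -7.73 points in infarcted and 0.02 points in non-infarcted tissue. The median over all autosomal genes was 0.619 and 3.05 points. Slamf9 differed the other way, with 98.3 and 93.8 in null tissue, against 76.01 and 81.8 in wild-type tissue.

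None of the 7 measured Fc receptor genes met the rule. Fcgr3, an activating low-affinity IgG receptor, had 45.2 and 35.6 in null tissue, against 52.5 and 41.9 in wild-type tissue, the lowest level of the group. Fcrla, an Fc receptor-like protein of B cells, had 237 and 203 in null tissue, against 242 and 236 in wild-type tissue. The median over its sites was 222 and 151 in null tissue, against 161 and 192 in wild-type tissue, so its order differed between the tissues. The mean difference of these medians was 9.49 points. Of the 12 p200 family genes in the interval, 2 were measured. Ifi207 had 130.5 and 144 in null tissue, against 103 and 104 in wild-type tissue, with 3 of its 5 sites higher in both tissues and 0 lower. Aim2 had 110.5 and 110.2 in null tissue, against 109 and 106 in wild-type tissue.

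Among the 10 measured metabolic genes, 2 were higher in null tissue by the rule and 0 lower. Pex19 had 281 and 245 in null tissue, against 173 and 172 in wild-type tissue, and 4 of its 7 sites were higher in both tissues and 1 lower. Ppox, an enzyme of haem synthesis, had 322 and 330.0 in null tissue, against 278 and 284 in wild-type tissue, with 4 of 7 sites higher in both tissues and 2 lower. Fh1, with no wild-type-only site, had 90.2 and 78.8 in null tissue, against 84.5 and 86.3 in wild-type tissue, so its order differed between the tissues.

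Among the 13 muscle, channel and vascular genes, 1 was higher and 1 lower. Kcnj9, a G-protein-gated potassium channel subunit, had 174 and 169 in null tissue, against 138 and 141 in wild-type tissue, with 6 of 10 sites higher in both tissues and 0 lower. Rgs4, a regulator of G-protein signalling, had 365 and 336 in null tissue, against 432 and 436 in wild-type tissue, with 4 of 5 sites lower and 0 higher. Its BGT percent was also lower, with 100.3 and 132 in null tissue, against 137 and 197 in wild-type tissue. MspI signal enters both percents of Rgs4, and its part in their differences was not tested. Adamts4, a protease of extracellular matrix proteoglycans, had 255 and 231 in null tissue, against 212 and 213 in wild-type tissue. Of its 13 sites, 4 were higher in both tissues and 2 lower. The median over its sites was 282 and 215 in null tissue, against 178 and 230 in wild-type tissue, so its order differed between the tissues. Ddr2 had 97.8 and 96.5 in null tissue, against 87.7 and 81.1 in wild-type tissue. Nos1ap, measured over 114 sites, had 89.3 and 88.6 in null tissue, against 91.2 and 87.3 in wild-type tissue. So the long Nos1ap gene, with 24 wild-type-only sites, had summed levels at its shared sites within 4 percentage points of each other in all 4 samples.

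None of the 13 measured transcription and signalling genes met the rule. Rgs7, with the most wild-type-only sites, had 90.3 and 87.1 in null tissue, against 86.3 and 86.6 in wild-type tissue, over 77 sites. Uhmk1 had 117 and 122 in null tissue, against 156 and 126 in wild-type tissue, but the median over its sites turned the mean difference to 27.3 points, higher in null tissue. Outside the groups, Itln1 had 40.6 and 41.1 in null tissue, against 81.4 and 98.6 in wild-type tissue, with 4 of 7 sites lower in both tissues and 0 higher. Its BGT percent was higher, with 99.2 and 95.1 in null tissue, against 69.2 and 82.1 in wild-type tissue. Over the stretch at Itln1 described above, MspI signal, which enters both percents, was 4.19 and 3.47 times as high in null tissue. HpaII signal there was not lower but 1.92 and 1.65 times as high.

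**Figure D5:**
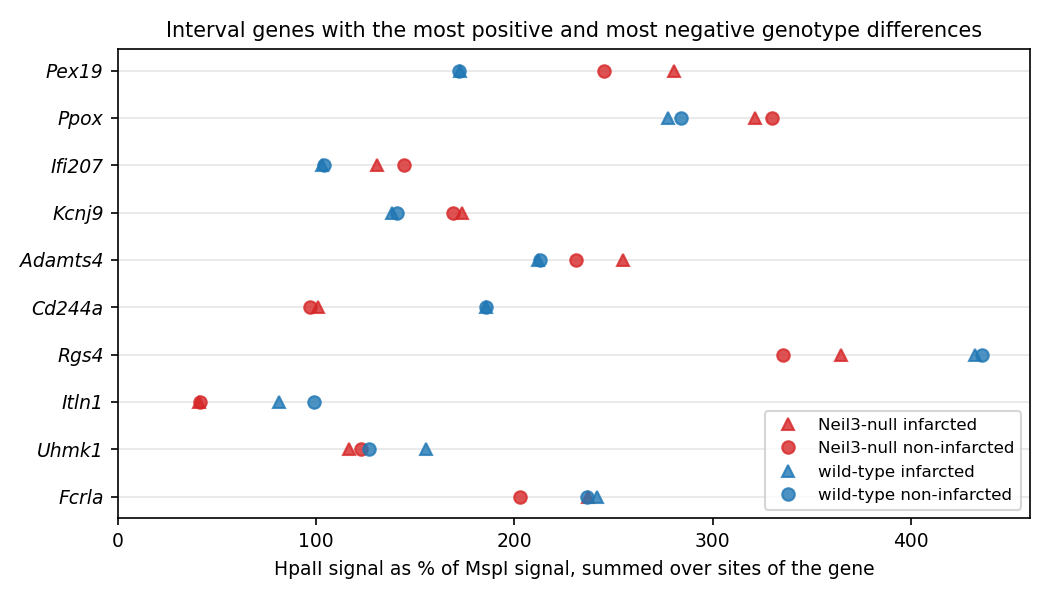
HpaII signal as a percent of MspI signal, summed over the used sites of a gene, for the interval genes with the 5 most positive and the 5 most negative genotype differences of equal sign in both tissues; red is Neil3-null, blue wild-type, triangles infarcted and circles non-infarcted tissue, 1 sample each. Cd244a has about 100% in null and 186% in wild-type tissue, while at Uhmk1 and Fcrla the genotypes nearly meet in 1 tissue. The median over sites has the opposite direction in both tissues at Uhmk1, and in infarcted tissue alone at Fcrla.

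The infarct contrast was not used to choose the interval and was tested with limma by an additive model of infarct and genotype over the 4 samples, which leaves 1 residual degree of freedom. After Benjamini-Hochberg adjustment, limma called 0 of 2804 interval sites for the HpaII percent, and 0% of 912550 sites over all autosomes. At an unadjusted limma p under 0.05 there were 194 interval sites (6.92%, against 6.60% over all autosomes), 92 higher and 102 lower in infarcted tissue. For the BGT percent limma called 0 interval sites, and 0.00329% over all autosomes, with 155 at an unadjusted p under 0.05 (5.53%, against 6.42%). Of 88 interval genes limma called 0 for either percent, and 0% of 16175 autosomal genes, with 11 genes (12.5%, against 12.3%) for the HpaII percent and 9 (10.2%, against 6.40%) for the BGT percent at an unadjusted p under 0.05. By the rule of 20 points, 1 interval gene, Tagln2, differed in the same direction in both genotypes for the HpaII percent (1.14%, against 2.90% of autosomal genes). For the BGT percent 4 did (4.55%, against 2.08%), with Nr1i3, a xenobiotic nuclear receptor, higher and Rgs4, Nit1 and Ccdc190 lower in infarcted tissue. With the median ratio over sites the Nr1i3 difference turned to -4.26 points. Rgs4, Nit1 and Ccdc190 each had their highest BGT percent in the wild-type non-infarcted library (197, 179 and 168), whose wider spread is given above. Nr1i3 did not.

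Kmo, kynurenine 3-monooxygenase of tryptophan breakdown, had the largest positive infarct difference in the HpaII percent, averaged over the genotypes, among interval genes of equal sign in both. It had 85.5 in infarcted against 67.1 in non-infarcted null tissue, and 111 in infarcted against 67.4 in non-infarcted wild-type tissue, higher in both genotypes (log2 difference 0.53, SE 0.09, limma adjusted p = 0.189). When only genes with at least 10 sites were fitted, limma called Kmo (adjusted p = 0.00601) as 1 of 59 interval genes, and 0.716% of 12577 autosomal genes. The log2 difference of Kmo was unchanged at 0.53. The weight limma gave to spread shared across features rose from 6.27 to 17.7 prior degrees of freedom. Fcgr3 was also higher in infarcted tissue of both genotypes, by 0.34 on the log2 scale (SE 0.07, limma adjusted p = 0.204). Ly9, a SLAM receptor, had 96.1 in infarcted against 83.1 in non-infarcted null tissue, and 124 in infarcted against 83.1 in non-infarcted wild-type tissue (limma adjusted p = 0.234). With the median ratio over the sites of Ly9 in place of sums, null tissue had 96.8 in infarcted against 144 in non-infarcted tissue. Wild-type tissue had 117 against 76.2. The genotypes thus differed in sign, and the mean infarct difference was -3.14 points. Lower values in infarcted tissue were seen at Tagln2, an actin-binding protein, with 197 against 225 in null tissue and 179 against 234 in wild-type tissue (limma adjusted p = 0.241). Casq1 had 183 in infarcted against 209 in non-infarcted null tissue, and 168 against 188 in wild-type tissue (limma adjusted p = 0.365). For the BGT percent, Rgs4 had the most negative difference, with 100.3 in infarcted against 132 in non-infarcted null tissue, and 137 against 197 in wild-type tissue (limma adjusted p = 0.756).

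Some facts of the whole series stand beside these values. Each single library summed to a signal of 34161766 to 43985354, and the files listed 1060295 to 1079784 sites; how many tags lie behind a value is not known. The HpaII percent of the cardiomyocyte genes Myh6, Tnnt2, Ryr2 and Actn2 was lower in infarcted tissue of both genotypes, by 5.85 to 26.3 percentage points. That of the leukocyte genes Itgb2 and Spi1 was higher in both, by 9.66 to 15.5 points. Ptprc and Cd68 differed in sign between the genotypes. Over all autosomal genes the median infarct difference was 1.68 points in null and 4.17 points in wild-type tissue. Cell composition was not measured, and its part in the interval's infarct differences was not tested. At Neil3 itself, which lies on chromosome 8, both wild-type files listed 16 sites, and 1 of these was in neither null file; which bases the deletion removed is not given in the labels, so this does not check them.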

How the data were processed

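Each of the 4 samples gave an HpaII, a glucosylated MspI (BGT) and an MspI library, per the labels' protocols. The authors deposited a normalized signal for every listed site in each library; the normalization, aligner and listing criteria are not stated in the sources at hand. The submitters' processing notes name mm10 as the build. A deposited position is the base before the first C of CCGG: of 2681 CCGG in chromosome 1 promoter windows, 1021 were listed there and at most 10 at any other offset. Wild-type-only sites were in both wild-type and neither null file. Ratios used autosomal sites in all 4 files with a mean BGT and MspI signal of at least 10; genes used summed signal over their span plus 1 kb and at least 5 sites. With 1 sample per group, genotype differences have no test and no replicate error; the infarct effect was fitted with limma 3.58.1 (R 4.3.3, Benjamini-Hochberg 0.05), after tests on simulated data. limma's p-values rest on 1 residual degree of freedom and on spread shared across features. Named genes were the 10 with most wild-type-only sites, the 5 most positive and 5 most negative HpaII genotype differences of equal sign in both tissues, up to 3 each way for the other comparisons, and genes of 8 lists; 83 of 90 listed genes lay in the interval, and a few named by this rule are not reported here. Members and lists were chosen with earlier results of these data known. Other steps ran in Python 3.11.15 with pandas 2.3.3.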

Additional observations from a re-analysis of the deposited data

How the results depend on the processing

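The share of wild-type-only sites was 18.5% within infarcted tissue alone (rest of chromosome 1, 3.09%), 18.8% within non-infarcted tissue alone (3.72%) and 13.1% at an MspI signal of at least 20. The null-only share was 2.47% and 1.44% within the same tissues, against 3.30% and 1.97% on the rest of chromosome 1. With a minimum signal of 20, or with 1 added to both signals, the percent of interval sites past 2-fold in the HpaII percent was 17.3 and 17.1 for genotype in infarcted tissue, 15.9 and 16.1 for genotype in non-infarcted tissue, 9.39 and 10.1 for infarct in null tissue, and 12.99 and 12.98 for infarct in wild-type tissue. For the BGT percent these were 7.21 and 7.99, 13.9 and 14.8, and 3.60 and 4.17 for the first 3, and 13.1 with 1 added for infarct in wild-type tissue. The same-direction genotype share was 5.14% for the HpaII percent with 1 added, 3.19% where MspI was within 1.5-fold (added after seeing the data), and 1.73% for the BGT percent at a minimum of 20. The number of interval genes called by limma was 1 with at least 10 sites a gene. With the median ratio over sites in place of sums, the mean genotype difference in the HpaII percent was 27.3 points at Uhmk1 and 9.49 at Fcrla, and the mean infarct difference was -3.14 at Ly9 for the HpaII percent, and -4.26 at Nr1i3 and -2.92 at Dusp12 for the BGT percent; these 5 signs are opposite to those from sums, and the cause was not tested. The other 99 comparisons of summary values stayed within their range, and 92 of 112 values of named genes kept their sign and side of the rule, while 7 met the rule of 20 points under the alternative alone and 8 no longer met it. No paired analysis was possible because each group has 1 sample and the labels give no replicate numbers; leaving out a sample leaves no residual degree of freedom. The unknown number of tags limits every value at a low signal.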
